A study of Mus musculus with 27 samples.

Results

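The genes described here are 10 stimulus-responsive genes of mouse macrophages. They are 3 members of the Fos family (Fos, Fosb and Fosl2), 2 members of the Jun family (Jun and Junb), the zinc finger factors Egr1 and Egr2, the immediate early response genes Ier2 and Ier3, and the stress-responsive factor Atf3. They were taken by name, as the probes whose gene name on the array equals one of these 10 symbols, which gave 11 of the 55681 probes on the array, or 10 of the 34844 different names on it. Ier2 was selected on measured values of these arrays, its log2 changes on re-stimulation with CpG and with Poly(I:C), which ran in opposite directions. Its values in those groups are therefore given as a description, with no test.

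Bone marrow derived macrophages (BMDM) were grown from female C57BL/6 mice of 6 to 8 weeks, differentiated for 7 days in medium conditioned by L929 cells, a fibroblast line that secretes the macrophage growth factor M-CSF. Cells were left untreated (naïve), or received 1 ligand of a Toll-like receptor (TLR) for 4 h (acute), or received it for 24 h, were washed, and received the same ligand again for 4 h (re-stimulated). The ligands were lipopolysaccharide (LPS, TLR4) and Pam3CSK4 (TLR2) at 100 ng/ml each, CpG DNA (TLR9) at 100 µM by the sample labels, a dose that differs from the one in the study's methods, and Poly(I:C) (TLR3) at 10 µg/ml. RNA was hybridised to 1-colour arrays, and the 9 groups had 3 arrays each, of which 25 of 27 arrays carry deposited log2 values, leaving 2 arrays of LPS re-stimulated and 2 of Pam3CSK4 acute. The cultures are primary cells outside the body, described as grown from marrow pooled over several mice, with an independent pool for each replicate. There was no group that received the long exposure without the second dose.

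AP-1 is a transcription factor made of 2 basic leucine zipper proteins, usually a Fos protein bound to a Jun protein, and it binds the sequence TGACTCA. MAP kinases downstream of TLRs switch on the genes of its subunits without new protein synthesis, within minutes, and the transcripts are short-lived, which is why Fos, Jun and the Egr genes are called immediate early genes. In macrophages AP-1 acts beside NF-κB at the promoters of many cytokine genes, and Atf3 is known as a factor that restrains them. The arrays sampled the cells at 4 h, past the early peak these genes are known for.

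Several arrays stood apart from their groups, and every value below has to be read with that. Each array was compared with all others over the 16713 probes with a mean log2 value above 7, and 11 of 25 arrays were most similar to an array of another group. These 11 included all 7 arrays used from slide 3, which carries replicate 3 of every group except LPS acute, and each of the 7 was most similar to another array on that slide. Naïve replicate 3 correlated best with Pam3CSK4 acute replicate 3 (Pearson r = 0.983, against 0.959 with its own group), and its level of Tnf, the inflammatory cytokine, was 13.44 beside 9 and 9.53 on the other naïve arrays. It also had 74.6% of probes well above background, where the other 24 arrays had 42% to 54.3%. All 8 macrophage markers measured, among them Csf1r, Emr1 and Cd68, were well above background in every group. The summed level of 8 neutrophil marker genes was 11.59 to 12.10 on slide 3 and 12.84 to 15.19 on slides 1 and 2. That of 4 mast cell and basophil genes was 4.24 to 4.66 and 4.61 to 8.30. The 3 LPS acute arrays were hybridised on slides of their own (slides 4 to 6), scanned on other days and read with another version of the array design file. Their neutrophil sum was 11.56 to 12.18 and their mast cell sum 4.35 to 4.55. Acute LPS and its slides therefore cannot be told apart. The sums of the other marker lists differed without overlap between re-stimulated and acute LPS as well. Those of 5 fibroblast genes, of which Dcn alone or Dcn and Col1a2 were above background, were 8.89 to 9.51 against 6.52 to 7.76, those of macrophage genes 19.58 to 19.63 against 19.01 to 19.19, and those of dendritic cell genes 15.21 to 15.47 against 16.00 to 16.92. T cell, B cell and erythroid sums were lower in re-stimulated LPS. With Poly(I:C) the fibroblast sum was 8.53 to 8.81 in re-stimulated and 6.66 to 8.21 in acute cells, and 6.78 to 8.23 in naïve cells. The part of slide 3 and of these other cell types in the results was not tested. Results are given with and without slide 3 where that changes them. In RNA from whole cultures, fewer cells that express a gene and less RNA per cell cannot be told apart.

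Promoter sequences of 8 of the 10 genes were found in RefSeq (GRCm38.p6, windows from 250 bases before to 50 bases after the start of transcription, 12 windows in all, 5 of them for Egr2). The 250 bases before the start are printed for Fos, Fosl2, Junb and Ier3, with the motifs that were found in capitals. Fosl2, Junb and Ier3 carry calls that no setting and no left-out array removed, and Fos is the founding AP-1 gene:

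Fos, chr12:85473640-85473889, plus strand: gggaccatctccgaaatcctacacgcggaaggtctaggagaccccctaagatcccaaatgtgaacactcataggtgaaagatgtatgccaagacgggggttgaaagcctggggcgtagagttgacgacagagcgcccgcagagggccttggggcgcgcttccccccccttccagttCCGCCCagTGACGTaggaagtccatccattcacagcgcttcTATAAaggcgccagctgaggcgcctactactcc
Fosl2, chr5:32136222-32136471, plus strand: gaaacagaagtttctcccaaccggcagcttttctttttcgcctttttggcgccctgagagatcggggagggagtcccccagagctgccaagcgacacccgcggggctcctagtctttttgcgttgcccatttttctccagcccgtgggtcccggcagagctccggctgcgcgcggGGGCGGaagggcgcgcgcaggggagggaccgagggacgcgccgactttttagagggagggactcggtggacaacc
Junb, chr8:84978749-84978998, minus strand: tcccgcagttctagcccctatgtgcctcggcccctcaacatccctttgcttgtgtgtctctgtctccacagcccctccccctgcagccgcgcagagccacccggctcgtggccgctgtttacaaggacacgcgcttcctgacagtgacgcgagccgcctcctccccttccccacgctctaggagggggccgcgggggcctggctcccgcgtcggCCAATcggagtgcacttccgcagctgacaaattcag
Ier3, chr17:35821463-35821712, plus strand: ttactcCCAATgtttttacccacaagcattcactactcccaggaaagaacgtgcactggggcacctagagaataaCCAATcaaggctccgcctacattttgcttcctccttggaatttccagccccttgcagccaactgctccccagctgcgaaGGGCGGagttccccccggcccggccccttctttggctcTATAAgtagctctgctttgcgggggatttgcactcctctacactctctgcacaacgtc

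For Egr2, which also carries such a call, and for Atf3 the 30 bases around a motif are printed:

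Egr2, chr10:67537793-67537822, plus strand: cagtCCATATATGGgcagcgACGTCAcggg
Atf3, chr1:191183316-191183345, minus strand: cattACGTCAgcctgggATTGGtaacctgg

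The capitals mark TGACGT, which is the core of the cyclic AMP response element and reads ACGTCA where it lies on the other strand, and the CArG box bound by serum response factor. They also mark TATAA as well as CCAAT, which reads ATTGG on the other strand, and GGGCGG, which reads CCGCCC there. All were searched on both strands except TATAA, which was searched on the gene's strand. TGACGT was found 66 bases before the start of Fos, 56 bases before that of Egr2 and 8 bases before that of Atf3, and in 7.51% of all 32851 promoter windows of 300 bases. The CArG box was found 72 bases before the start of Egr2 and in 1.63% of windows. TATAA was found 33 bases before the start of Fos and 58 before that of Ier3 (17.5% of windows), CCAAT 36 bases before that of Junb (37.4%), and GGGCGG 75 bases before that of Fosl2 (35.7%). These positions are not the full set. TATAA was also in windows of Junb and Egr2, and CCAAT in those of Ier3, Jun, Egr2 and Atf3. GGGCGG was also in windows of Fos, Ier3, Jun, Fosb, Egr2 and Atf3. The AP-1 sequence TGACTCA (5.2% of windows) and the full TGACGTCA (1.79%), which contains TGACGT, were in none of the windows of these 8 genes. A match describes the letters of the window only.

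Levels below are the deposited log2 values, on which 1 unit is a doubling. A gene was called changed between 2 groups when they differed by 1.5-fold or more with a limma adjusted p below 0.05. All 10 genes were well above background on all 25 arrays. A level is not compared between genes, since each probe has its own brightness. Where arrays are listed, they are in the order of replicates 1 to 3.

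**Figure D1:**
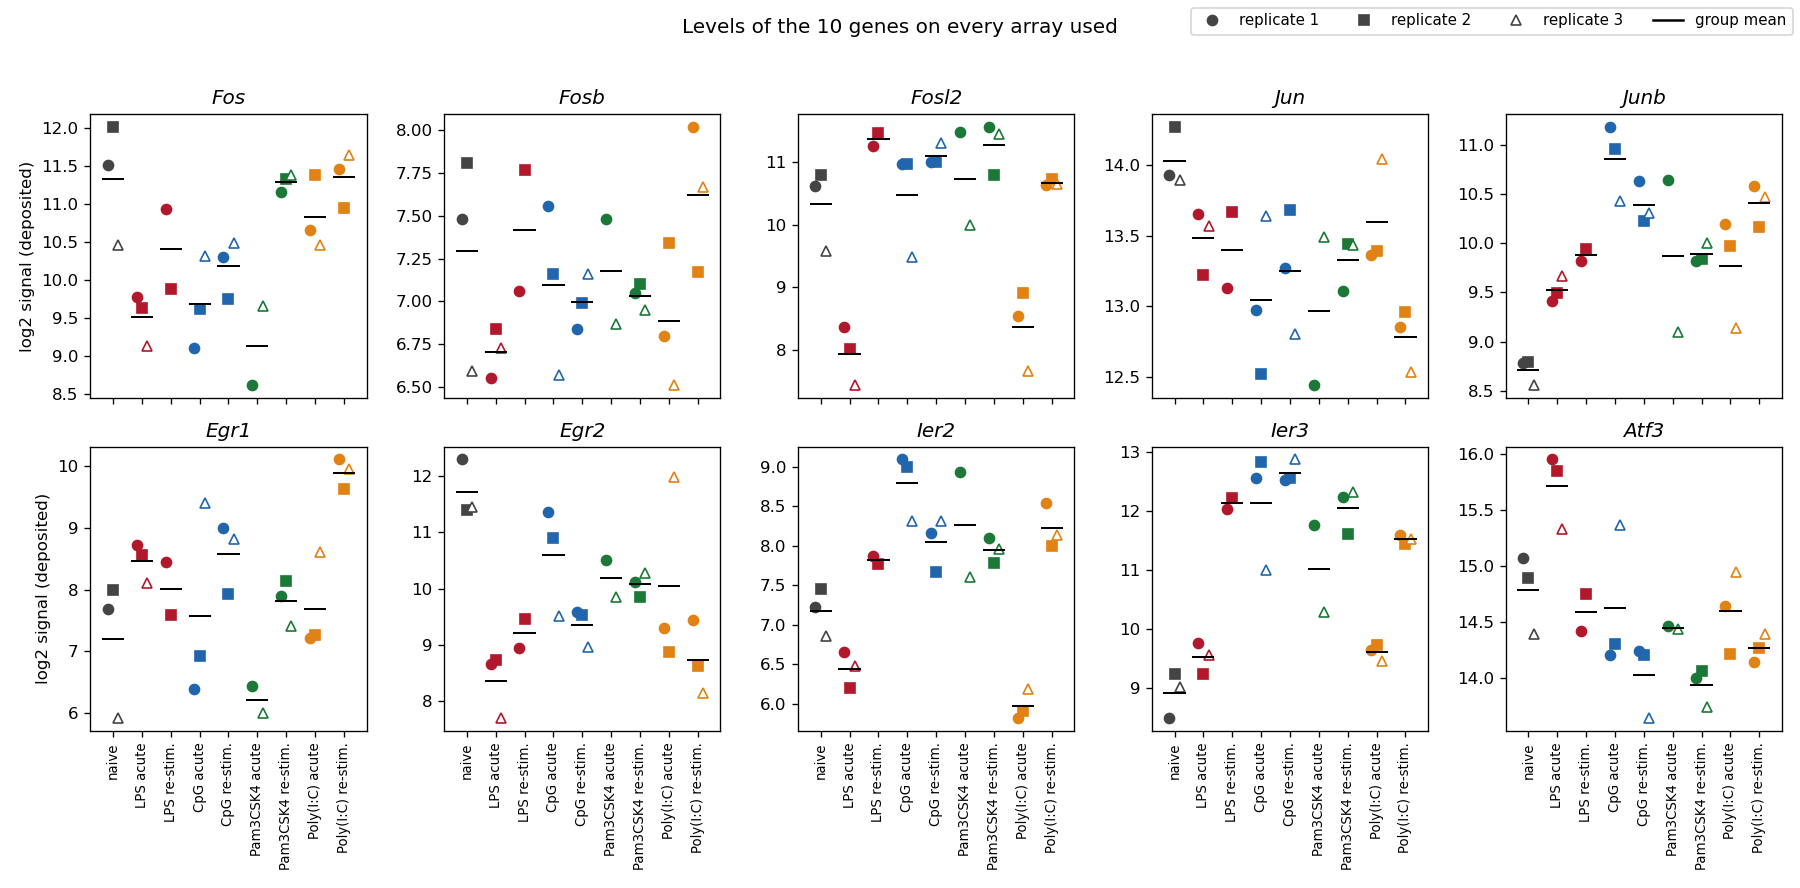
Deposited log2 signal (y axis) of each of the 10 genes on each array used, by group (x axis). Points are single arrays, shaped by replicate (the open triangle is replicate 3, on slide 3 except for LPS acute), and bars are group means. Fosl2 lies between 7.43 and 8.91 on the acute LPS and Poly(I:C) arrays and between 9.49 and 11.57 on all others, and Ier3 is lowest in naïve, acute LPS and acute Poly(I:C) macrophages.

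Across the ligands, no gene of the 10 was called in every comparison with naïve cells. In re-stimulated against naïve macrophages Ier3 and Junb were higher and Egr2 lower with all 4 ligands. Of the 10 genes, 3 were called with LPS (5.67% of all probes tested were called in that comparison), 3 with CpG (13.2%), 3 with Pam3CSK4 (5.36%) and 5 with Poly(I:C) (9.03%). These comparisons share the naïve arrays. In acute against naïve macrophages 4 of 10 were called with LPS (26.5% of probes), 3 with CpG (5.72%), 1 with Poly(I:C) (6.03%), Ier2 being among the CpG genes and the gene past the threshold with Poly(I:C), and 0 with Pam3CSK4 (0% of probes). With Pam3CSK4, 3458 probes and 4 of the 10 genes had an unadjusted p below 0.05 in the limma fit of its 2 arrays, and 1 limma fit of all 9 groups called 5.98% of probes and 2 of the 10 genes.

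**Figure D2:**
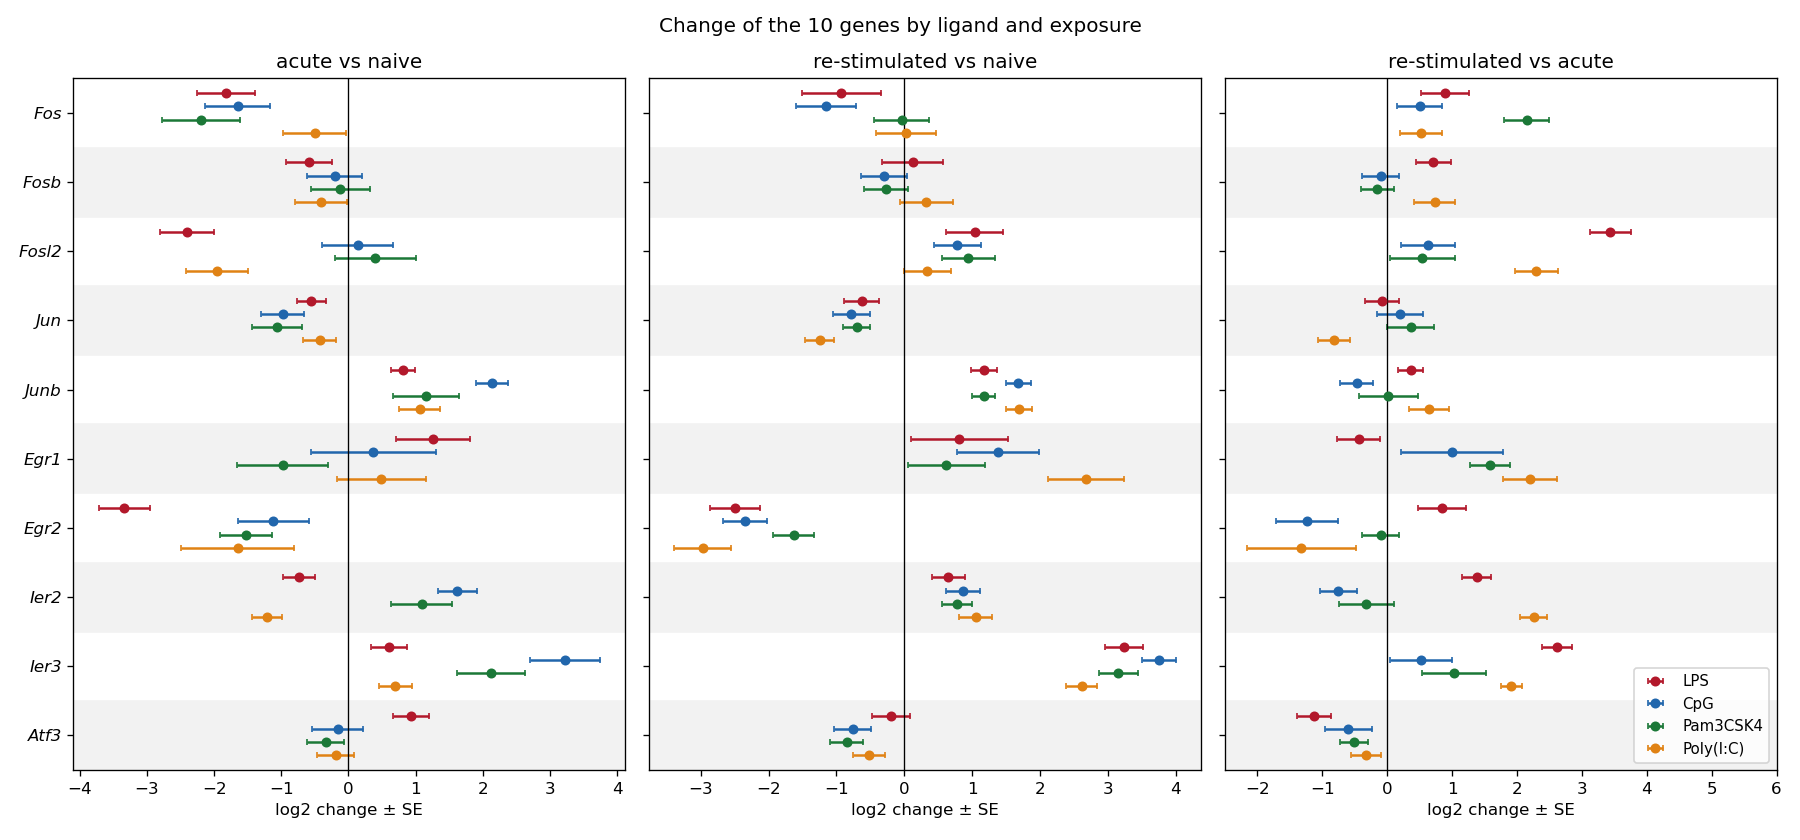
Difference of group means on the log2 scale (x axis) for each of the 10 genes (y axis), acute against naïve (left), re-stimulated against naïve (middle) and re-stimulated against acute (right), coloured by ligand. Bars are the standard error from the limma fit of the groups compared. Ier3 and Junb are right of 0 and Egr2 left of 0 for all 4 ligands in the middle panel, while Fosl2 changed by +3.44 with LPS and by +2.30 with Poly(I:C) in the right panel.

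Fos, the founding member of its family and the usual partner of Jun in AP-1, was measured by a probe at chr12:86817900-86817959 on the plus strand (mm9), spotted 10 times on each array. Its level was 11.52, 12.02 and 10.46 on the naïve arrays. After acute stimulation it was 9.78, 9.64 and 9.13 with LPS, 9.11, 9.62 and 10.32 with CpG, 8.62 and 9.66 with Pam3CSK4 (replicates 1 and 3), and 10.66, 11.39 and 10.46 with Poly(I:C). Fos was thus lower than on every naïve array on all acute arrays of LPS, CpG and Pam3CSK4, while the acute Poly(I:C) arrays overlapped the naïve ones. The fall with LPS was 3.52-fold (log2 change -1.82, SE 0.43, adjusted p = 0.0254). That call was lost when any of naïve replicates 1 and 2 or LPS acute replicates 1 to 3 was left out (log2 change -1.47 to -1.95, adjusted p 0.0624 to 0.0784), and without slide 3 it was -2.25 (adjusted p = 0.00189). The changes with CpG (-1.65, SE 0.49, adjusted p = 0.114) and Pam3CSK4 (-2.19, SE 0.58, adjusted p = 0.294) did not pass. Both were larger without slide 3, at -2.40 (adjusted p = 0.0118) and -3.15 (adjusted p = 0.0275), the latter resting on 1 Pam3CSK4 array assumed to vary like the others. On slide 3 alone the CpG array differed from the naïve one by -0.14, against -2.41 and -2.40 on slides 1 and 2.

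On re-stimulation Fos was 11.16, 11.34 and 11.39 with Pam3CSK4 and 11.46, 10.95 and 11.65 with Poly(I:C), and all 6 of these arrays lay within the naïve range. The levels were 10.94 and 9.88 with LPS (replicates 1 and 2) and 10.31, 9.75 and 10.49 with CpG, which placed them between the acute and the naïve means. Re-stimulated minus naïve differences were -0.04 with Pam3CSK4 (95% interval -1.03 to 0.95) and 0.02 with Poly(I:C) (-1.05 to 1.09), so differences of up to about 1 log2 unit either way were not excluded. The difference between re-stimulated and acute Pam3CSK4 was +2.15 (SE 0.35, adjusted p = 0.16 in the fit of those groups and 0.0156 in the fit of all 9 groups). In that comparison 0% of probes and 0 of the 10 genes were called, with 3461 probes and 2 of the 10 genes below an unadjusted p of 0.05, and the fit of all 9 groups called 3.35% of probes and 1 of the 10 genes.

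Fosb, whose protein also pairs with Jun proteins, was measured by a probe at chr7:19888168-19888227 on the minus strand (mm9). Its group means lay between 6.71 (LPS acute) and 7.62 (Poly(I:C) re-stimulated), and in the order of means each group overlapped the next. The naïve arrays alone spanned 6.59 to 7.81. No comparison called it. The differences between re-stimulated and acute cells that came nearest were +0.71 with LPS (95% interval 0.06 to 1.36, adjusted p = 0.0868) and +0.73 with Poly(I:C) (8.02, 7.17 and 7.67 against 6.80, 7.34 and 6.51). Without slide 3, Fosb was lower in acute LPS than in naïve cells by 0.94 on the log2 scale (change -0.94, adjusted p = 0.0144).

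Fosl2, which encodes the Fos-related protein FRA-2 and is usually induced later than Fos, was measured by 2 probes, and the brighter one, at chr5:32460076-32460135 on the plus strand (mm9), is used. Naïve arrays gave 10.62, 10.80 and 9.58. After acute stimulation the level was 8.37, 8.01 and 7.43 with LPS and 8.54, 8.91 and 7.66 with Poly(I:C), whereas it was 10.97, 10.97 and 9.49 with CpG and 11.48 and 9.99 with Pam3CSK4. The acute arrays of LPS and Poly(I:C) thus lay below all other arrays, and those of CpG and Pam3CSK4 overlapped the naïve range. Fosl2 fell 5.26-fold with acute LPS (log2 change -2.40, SE 0.40, adjusted p = 0.00864), a call that no alternative and no left-out array removed. With acute Poly(I:C) it was 3.90-fold lower (log2 change -1.96, SE 0.46, adjusted p = 0.0659), and the call was made with replicate number as a block (adjusted p = 0.0197) and without slide 3 (adjusted p = 0.00672). Within slides 1, 2 and 3 that difference was -2.07, -1.89 and -1.92.

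Re-stimulation brought Fosl2 to 11.27 and 11.47 with LPS, 11.01, 11.01 and 11.31 with CpG, 11.57, 10.80 and 11.45 with Pam3CSK4, and 10.63, 10.73 and 10.66 with Poly(I:C). These 11 arrays span less than 1 log2 unit. Fosl2 rose 10.8-fold from acute to re-stimulated LPS (log2 change +3.44, SE 0.31, adjusted p = 0.00103), again under all alternatives and with each array left out. In that comparison 4 of the 10 genes were called, beside 34.2% of all probes. From acute to re-stimulated Poly(I:C) the difference was +2.30 (SE 0.33), with within-slide values of 2.09, 1.82 and 3.01. This is given without a test, since re-stimulation with CpG and Poly(I:C) was used in choosing the genes. Counted for description only, 4 of the 10 genes met the limits for a call with Poly(I:C) (4.93% of probes), Ier2 among them. With CpG it was 0 of 10 (3.56% of probes, with 5573 probes and 2 of the 10 genes below an unadjusted p of 0.05 in limma). Nothing is read from either count. The re-stimulation change of Fosl2 was larger with LPS than with Pam3CSK4 by 2.89 (SE 0.70, adjusted p = 0.0207, a contrast in the limma fit of all 9 groups, where 7.2% of probes passed). It was lost when LPS re-stimulated replicate 1 (2.99, adjusted p = 0.0545) or 2 (2.79, adjusted p = 0.0835), or Pam3CSK4 acute replicate 1 (2.15, adjusted p = 0.112) was left out, and with median scaling (2.72, adjusted p = 0.198). Without Pam3CSK4 re-stimulated replicate 2 it stood at the threshold (2.65, adjusted p = 0.05). The second Fosl2 probe (chr5:32455088-32455147) was well above background on 10 of 25 arrays. It was so on 1 of 3 naïve arrays (mean 3.95), on 3 of 3 acute LPS arrays (mean 5.49) and on 0 of 2 re-stimulated LPS arrays. It thus showed neither the fall of the brighter probe with acute LPS nor its rise on re-stimulation, and no change is given for it.

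Jun, the central partner of the Fos proteins, was measured at chr4:94716928-94716987 on the minus strand (mm9). It was highest in naïve macrophages, at 13.93, 14.27 and 13.89, and 24 of the 25 arrays lay within a narrow range of 12.44 to 14.04. Re-stimulated Poly(I:C) arrays were the lowest group, at 12.85, 12.96 and 12.53. Against naïve cells Jun fell 2.37-fold there (log2 change -1.25, SE 0.21, adjusted p = 0.023), the only call for Jun among the 14 comparisons. Within slides the differences were -1.08, -1.31 and -1.36. The call was lost without naïve replicate 1 or 2 or Poly(I:C) re-stimulated replicate 1 or 2 (log2 change -1.13 to -1.34, adjusted p 0.0729 to 0.0875). With median scaling, which moved the median of all probes in that comparison from -0.04 to 0.54, the change of Jun was -0.32 (adjusted p = 0.805). The means of all 8 stimulated groups were below the naïve mean, by 0.43 (acute Poly(I:C)) to 1.25.

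Junb, a Jun protein that activates fewer genes than Jun and can oppose it, was measured at chr8:87501881-87501940 on the minus strand (mm9). The naïve arrays, at 8.78, 8.79 and 8.56, were below all 22 stimulated arrays. The highest levels were those of acute CpG, at 11.18, 10.96 and 10.43. Acute LPS gave 9.41, 9.49 and 9.67, acute Poly(I:C) 10.19, 9.97 and 9.14, and acute Pam3CSK4 10.64 and 9.10. Junb rose 4.42-fold with acute CpG (log2 change +2.14, SE 0.24, adjusted p = 0.0137) and 1.76-fold with acute LPS (+0.81, SE 0.18, adjusted p = 0.0214). The changes with Pam3CSK4 (+1.15, SE 0.49, adjusted p = 0.43) and Poly(I:C) (+1.06, SE 0.30, adjusted p = 0.109) did not pass. The CpG call was lost without naïve replicate 1 or 2 or CpG acute replicate 1 or 2 (log2 change 1.98 to 2.18, adjusted p 0.0591 to 0.0817), and the LPS call without naïve replicate 1 or 2 or LPS acute replicate 1 or 2 (0.83 to 0.87, adjusted p 0.0556 to 0.0753) and with the replicate number as a block (adjusted p = 0.0679). For acute LPS that block pairs arrays that share no slide.

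After re-stimulation the spread of Junb between ligands was small. It was 9.82 and 9.94 with LPS, 10.63, 10.23 and 10.31 with CpG, 9.82, 9.84 and 10.00 with Pam3CSK4, and 10.58, 10.16 and 10.47 with Poly(I:C). Against naïve cells it was higher with all 4 ligands, by 1.17 with LPS (SE 0.19, adjusted p = 0.0393), 1.68 with CpG (SE 0.18, adjusted p = 0.00782), 1.17 with Pam3CSK4 (SE 0.17, adjusted p = 0.0279) and 1.69 with Poly(I:C) (SE 0.19, adjusted p = 0.00969). Of these the CpG call held with every array left out. Leaving out replicate 1 of re-stimulated Poly(I:C) ended that ligand's call (1.61, adjusted p = 0.0529). The LPS call was lost without any of naïve replicates 1 and 2 and LPS re-stimulated replicates 1 and 2 (1.11 to 1.23, adjusted p 0.115 to 0.277), and the Pam3CSK4 call without naïve replicate 1 or 2 or any Pam3CSK4 array (1.12 to 1.21, adjusted p 0.0586 to 0.117) and with the block (adjusted p = 0.0676). Within slides, the 11 differences from the naïve array ran from 1.04 to 1.91.

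**Figure D3:**
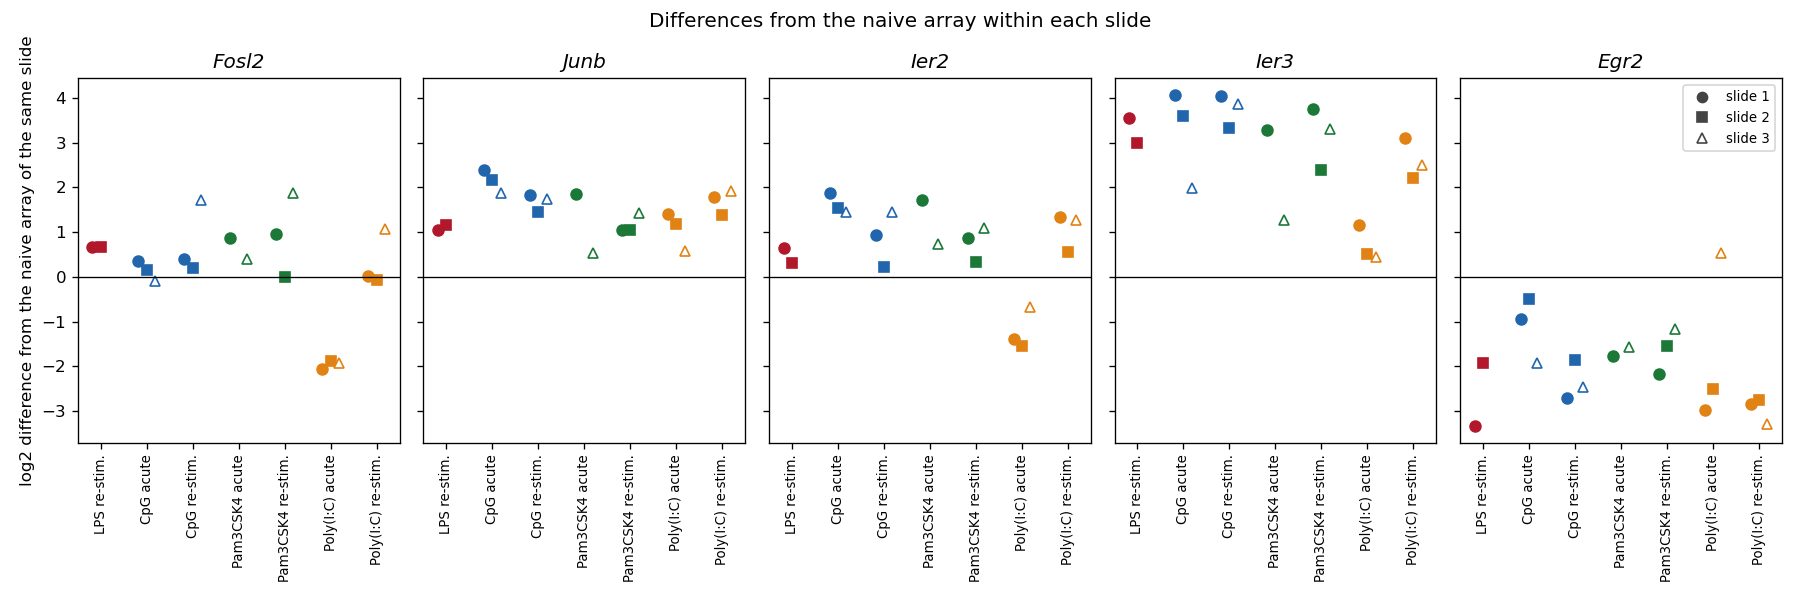
Difference on the log2 scale (y axis) between each stimulated array and the naïve array of the same slide, for 5 genes, by group (x axis). Filled circles are slide 1, filled squares slide 2 and open triangles slide 3, and acute LPS is left out because it shares no slide with naïve cells. All Junb and Ier3 points are above 0, and all Egr2 points are below 0 except acute Poly(I:C) on slide 3 (0.54).

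Egr1, a zinc finger factor and a classic immediate early gene, was measured on chromosome 18 at 35024395 to 35024454 on the plus strand (mm9), and its replicates disagreed. Naïve arrays gave 7.68, 7.99 and 5.93, acute CpG arrays 6.40, 6.92 and 9.40, and acute Poly(I:C) arrays 7.21, 7.26 and 8.60. Replicate 3 was the lowest naïve array and the highest array in both acute groups. The change with acute CpG was 0.37 over all arrays (SE 0.93, adjusted p = 0.853), but within slides it was -1.28, -1.07 and +3.48, and without slide 3 it was -1.18 (adjusted p = 0.0429). Its direction thus turned with slide 3. With acute Poly(I:C) the values were +0.49 and, without slide 3, -0.60 (adjusted p = 0.0658). Acute LPS arrays gave 8.72, 8.56 and 8.10 (change +1.26, SE 0.55, adjusted p = 0.139) and acute Pam3CSK4 arrays 6.44 and 6.00 (-0.98, SE 0.68, adjusted p = 0.622).

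Re-stimulated Poly(I:C) arrays had the highest Egr1 levels, 10.10, 9.62 and 9.94, and did not overlap any other group. Egr1 rose 6.43-fold there against naïve cells (log2 change +2.68, SE 0.56, adjusted p = 0.0395), with within-slide differences of 2.42, 1.63 and 4.01. Without slide 3 the change was 2.02 (adjusted p = 0.00649). The call was lost without naïve replicate 1 or 2 or any of the 3 Poly(I:C) arrays (2.58 to 3.08, adjusted p 0.0678 to 0.134), and with the replicate number as a block (adjusted p = 0.0716). Re-stimulated minus acute Poly(I:C) was +2.20, and each slide showed the same direction (2.89, 2.36 and 1.34). The other re-stimulated groups lay at 8.44 and 7.59 (LPS), 9, 7.93 and 8.81 (CpG) and 7.90, 8.14 and 7.41 (Pam3CSK4), and none of them was called against naïve cells.

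Egr2, a relative of Egr1 whose product takes part in macrophage differentiation, was measured at chr10:67004798-67004857 on the plus strand (mm9). Its naïve levels, 12.29, 11.39 and 11.44, were the highest group mean. Acute stimulation gave 8.66, 8.73 and 7.71 with LPS, 11.36, 10.90 and 9.51 with CpG, 10.51 and 9.86 with Pam3CSK4, and 9.31, 8.87 and 11.98 with Poly(I:C). Every acute array was below the naïve range except replicate 3 of Poly(I:C), which lay inside it. Egr2 fell 10.1-fold with acute LPS (log2 change -3.34, SE 0.38, adjusted p = 0.00255), whichever setting was used and whichever array was left out. With Poly(I:C) the acute change was -1.65 (SE 0.84, adjusted p = 0.325) over all arrays and -2.75 (adjusted p = 0.0127) without slide 3, where the within-slide differences had been -2.98, -2.52 and +0.54. The changes with CpG (-1.12, adjusted p = 0.275) and Pam3CSK4 (-1.52, adjusted p = 0.292) did not pass.

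After re-stimulation Egr2 was 8.95 and 9.46 with LPS, 9.58, 9.53 and 8.97 with CpG, 10.11, 9.85 and 10.28 with Pam3CSK4, and 9.44, 8.63 and 8.15 with Poly(I:C). All 11 arrays were below the naïve range. Against naïve cells Egr2 fell with all 4 ligands, with log2 changes of -2.5 for LPS (SE 0.37, adjusted p = 0.0343), -2.35 for CpG (SE 0.32, adjusted p = 0.0125), -1.63 for Pam3CSK4 (SE 0.30, adjusted p = 0.0408) and -2.97 for Poly(I:C) (SE 0.42, adjusted p = 0.0161). Leaving out 1 array ended the LPS call (any of naïve replicates 1 and 2 and LPS replicates 1 and 2, -2.21 to -2.76, adjusted p 0.0805 to 0.228) and the Pam3CSK4 call (naïve replicates 1 and 2 and all 3 Pam3CSK4 arrays, -1.33 to -1.78, adjusted p 0.0704 to 0.145). It ended the CpG call without CpG re-stimulated replicate 2 (-2.43, adjusted p = 0.052) and the Poly(I:C) call without naïve replicate 1 or 2 or Poly(I:C) re-stimulated replicate 2 (-2.68 to -3.13, adjusted p 0.0536 to 0.0719). The replicate block ended the Pam3CSK4 call (adjusted p = 0.071), and median scaling reduced the CpG change to -1.28 (adjusted p = 0.147) and the Pam3CSK4 change to -0.98 (adjusted p = 0.519).

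Ier2, a nuclear protein gene induced by growth factors, was measured at chr8:87186214-87186273 on the minus strand (mm9). Naïve arrays gave 7.22, 7.45 and 6.86. After acute stimulation it was 9.09, 8.99 and 8.31 with CpG and 8.93 and 7.60 with Pam3CSK4, but 6.65, 6.20 and 6.47 with LPS and 5.82, 5.90 and 6.18 with Poly(I:C). The acute arrays thus lay wholly above the naïve range with CpG and Pam3CSK4 and wholly below it with LPS and Poly(I:C). The acute differences from naïve were +1.62 (SE 0.29) with CpG and -1.21 (SE 0.22) with Poly(I:C), which are given without a test. With LPS the difference was -0.73 (SE 0.24, adjusted p = 0.0636, and 0.021 without slide 3, where it was -0.89), and with Pam3CSK4 +1.09 (SE 0.46, adjusted p = 0.429, and 0.0431 without slide 3, where it was 1.59 and rested on 1 Pam3CSK4 array).

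On re-stimulation the Ier2 levels of the 4 ligands came together, at 7.87 and 7.77 with LPS, 8.16, 7.66 and 8.31 with CpG, 8.10, 7.78 and 7.95 with Pam3CSK4, and 8.54, 8.00 and 8.13 with Poly(I:C). Each was above the naïve range. Re-stimulated minus acute was -0.75 with CpG and +2.26 with Poly(I:C), the contrast for which the gene was chosen. The CpG difference was -0.93 and -1.32 on slides 1 and 2 and 0.01 on slide 3, and the Poly(I:C) difference 2.73, 2.10 and 1.95. In the groups not used for the choice, Ier2 rose 2.60-fold from acute to re-stimulated LPS (log2 change +1.38, SE 0.22, adjusted p = 0.00574). This held with each array left out and was lost when the excluded LPS array was put back (0.39, adjusted p = 0.787, all 27 arrays). With Pam3CSK4 the difference was -0.32 (95% interval -1.36 to 0.71, adjusted p = 0.79), with -0.83 on slide 1 and 0.35 on slide 3. The re-stimulation change with LPS exceeded that with Pam3CSK4 by 1.70 (SE 0.46, adjusted p = 0.0322). This was lost without LPS acute replicate 2 (1.58, adjusted p = 0.0697), LPS re-stimulated replicate 1 or 2 (1.65 and 1.75, adjusted p 0.0962 and 0.0958), Pam3CSK4 acute replicate 1 (1.04, adjusted p = 0.184) or Pam3CSK4 re-stimulated replicate 2 (1.62, adjusted p = 0.0675), and under median scaling (1.48, adjusted p = 0.401), normexp background correction (1.13, adjusted p = 0.0517) and no detection filter (adjusted p = 0.0682). With all 27 arrays its direction turned (-0.76, adjusted p = 0.622).

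Ier3, a target of NF-κB whose product takes part in survival signalling, was measured at chr17:35959528-35959587 on the plus strand (mm9). Naïve arrays gave 8.49, 9.23 and 9.01. After acute stimulation the levels were 12.56, 12.84 and 11.00 with CpG, 11.76 and 10.29 with Pam3CSK4, 9.76, 9.23 and 9.56 with LPS, and 9.64, 9.73 and 9.46 with Poly(I:C). The acute CpG and Pam3CSK4 arrays thus lay above all acute LPS and Poly(I:C) arrays, and acute LPS reached the naïve range. Ier3 rose 9.35-fold with acute CpG (log2 change +3.23, SE 0.52, adjusted p = 0.0286). The change was +2.12 with Pam3CSK4 (SE 0.51, adjusted p = 0.288, and 0.00626 in the fit of all 9 groups), +0.61 with LPS (SE 0.27, adjusted p = 0.14) and +0.70 with Poly(I:C) (SE 0.24, adjusted p = 0.16). The CpG call was lost without naïve replicate 1 or 2 or CpG acute replicate 1 or 2 (2.87 to 3.38, adjusted p 0.1 to 0.109) and with the replicate block (adjusted p = 0.0614), and without slide 3 the change was 3.84 (adjusted p = 0.00527).

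After re-stimulation Ier3 was high with every ligand, at 12.04 and 12.23 with LPS, 12.53, 12.56 and 12.88 with CpG, 12.24, 11.62 and 12.32 with Pam3CSK4, and 11.59, 11.45 and 11.52 with Poly(I:C). The lowest of these 11 arrays was above the highest naïve array by over 2 log2 units. Against naïve cells Ier3 rose 13.4-fold with CpG (+3.75, SE 0.25, adjusted p = 0.00247), 9.35-fold with LPS (+3.23, SE 0.28, adjusted p = 0.015), 8.89-fold with Pam3CSK4 (+3.15, SE 0.29, adjusted p = 0.0141) and 6.10-fold with Poly(I:C) (+2.61, SE 0.23, adjusted p = 0.00665). The CpG and Poly(I:C) calls held whichever array was left out and under all settings tried. The LPS call was lost without LPS re-stimulated replicate 1 or 2 (3.32 and 3.13, adjusted p 0.126 and 0.193), and the Pam3CSK4 call without naïve replicate 1 or 2 or Pam3CSK4 re-stimulated replicate 1 (2.94 to 3.31, adjusted p 0.0575 to 0.0682) and with the block (adjusted p = 0.0551). From acute to re-stimulated LPS, Ier3 rose 6.14-fold (+2.62, SE 0.23, adjusted p = 0.00102) under all settings tried. With Pam3CSK4 that difference was +1.03 (SE 0.49, adjusted p = 0.428), and the difference between the 2 ligands, 1.59, did not pass (adjusted p = 0.124). It was 2.45 without slide 3 (adjusted p = 0.00302), 2.32 without Pam3CSK4 acute replicate 3 (adjusted p = 0.0451), 0.85 without Pam3CSK4 acute replicate 1 (adjusted p = 0.502) and 0.80 with all 27 arrays (adjusted p = 0.368). The untested values were +1.91 with Poly(I:C) and +0.52 with CpG, the latter with -0.03 and -0.28 on slides 1 and 2 and +1.88 on slide 3.

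Atf3, a bZIP protein that can repress its targets, was measured at chr1:192994547-192994606 on the minus strand (mm9). Its levels were 15.07, 14.89 and 14.39 on the naïve arrays and 15.95, 15.85 and 15.33 with acute LPS. Those 3 LPS arrays were the only group whose mean was above the naïve mean (change +0.93, SE 0.27, adjusted p = 0.0507, and 0.0408 with the replicate number as a block). That block pairs arrays that share no slide, and their deviations from group means correlated at 0.01 to 0.04. Re-stimulated LPS arrays, at 14.42 and 14.75, did not overlap the acute LPS arrays, and Atf3 fell 2.18-fold from acute to re-stimulated LPS (log2 change -1.13, SE 0.26, adjusted p = 0.0208). This was lost without LPS acute replicate 1 or 2 or LPS re-stimulated replicate 1 or 2 (-0.96 to -1.29, adjusted p 0.0544 to 0.11). With acute CpG the level was 14.20, 14.30 and 15.36, where replicate 3 lay above the naïve range and the others below it. Re-stimulated CpG (14.24, 14.20 and 13.64) and Pam3CSK4 (14, 14.06 and 13.74) arrays were below the naïve range, with changes of -0.76 (SE 0.27, adjusted p = 0.117) and -0.85 (SE 0.24, adjusted p = 0.0958). Without slide 3 these were -0.76 (adjusted p = 0.0358) and -0.95 (adjusted p = 0.0231).

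Acute CpG and acute Poly(I:C), the pair of ligands that act through endosomal receptors, were also compared directly on the same slides. Of the 10 genes, 1 passed, Ier2, for which no test is claimed (0.173% of probes were called). Ier3 differed by +2.53 (SE 0.48, adjusted p = 0.121) and Fosl2 by +2.11 (SE 0.51, adjusted p = 0.177). Within slides 1, 2 and 3, CpG exceeded Poly(I:C) by 2.92, 3.11 and 1.55 for Ier3 and by 2.43, 2.05 and 1.83 for Fosl2, so each slide showed the same direction. Without slide 3 they were 3.02 (adjusted p = 0.00853) and 2.24 (adjusted p = 0.0133), where 7.91% of probes were called. Between acute Pam3CSK4 and acute Poly(I:C), 0 of the 10 passed in limma, with 5 below an unadjusted p of 0.05 (2.42% of probes called).

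Leaving out slide 3, a choice made after seeing the data, changed the share of all probes called as well as the number of the 10 genes. For acute CpG it was 6 of 10 genes beside 17.7% of probes, with Fos (-2.40, adjusted p = 0.0118), Jun (-1.35, adjusted p = 0.0281) and Egr1 (-1.18, adjusted p = 0.0429) added. For acute Poly(I:C) it was 5 of 10 beside 25.8%, with Fosl2 (-1.98, adjusted p = 0.00672), Junb (+1.29, adjusted p = 0.00954), Egr2 (-2.75, adjusted p = 0.0127) and Jun (-0.73, adjusted p = 0.0462) added. For acute Pam3CSK4 it was 5 of 10 beside 8.35%, but with 1 array in the group, the genes besides Fos and Ier2 being Jun (-1.66, adjusted p = 0.0465), Junb (+1.85, adjusted p = 0.0307) and Ier3 (+2.91, adjusted p = 0.0398). For acute LPS it was 6 of 10 beside 37.8%, with Fosb and Ier2 added. In re-stimulated against naïve cells it was 3 of 10 with LPS (25% of probes), 5 with CpG (25.8%), 4 with Pam3CSK4 (24.4%) and 7 with Poly(I:C) (29.5%). Fos with CpG (-1.74, adjusted p = 0.0147) and Atf3 with Poly(I:C) (-0.78, adjusted p = 0.0266) were among those added. Between re-stimulated and acute CpG it was 1 (7.22%), a count from which nothing is read. Where Ier2 is among the genes counted with CpG or Poly(I:C), no test is claimed for it. Between acute Pam3CSK4 and acute Poly(I:C) only 1 Pam3CSK4 array was left. Egr2 was added between acute CpG and acute Poly(I:C) (+2.04, adjusted p = 0.0259).

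Other settings ended some of the 24 tested calls. Scaling each array to its median in place of quantile normalization ended 9. In acute LPS these were Fos (-1.48, adjusted p = 0.119) and Junb (+0.98, adjusted p = 0.4), and between acute and re-stimulated LPS it was Atf3 (-0.85, adjusted p = 0.177). Against naïve cells they were Junb in re-stimulated LPS (+1.64, adjusted p = 0.302) and Pam3CSK4 (+1.66, adjusted p = 0.131), Egr2 in re-stimulated LPS (-1.89, adjusted p = 0.162), CpG and Pam3CSK4, and Jun in re-stimulated Poly(I:C). Testing all probes with no detection filter ended 8, putting back the 2 excluded arrays 4, the replicate block 6, and the processed signal scaled to its 75th percentile 1, that of Atf3 (-1.04, adjusted p = 0.052). Egr2 in re-stimulated Pam3CSK4 was also lost in the fit of all 9 groups.

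**Figure D4:**
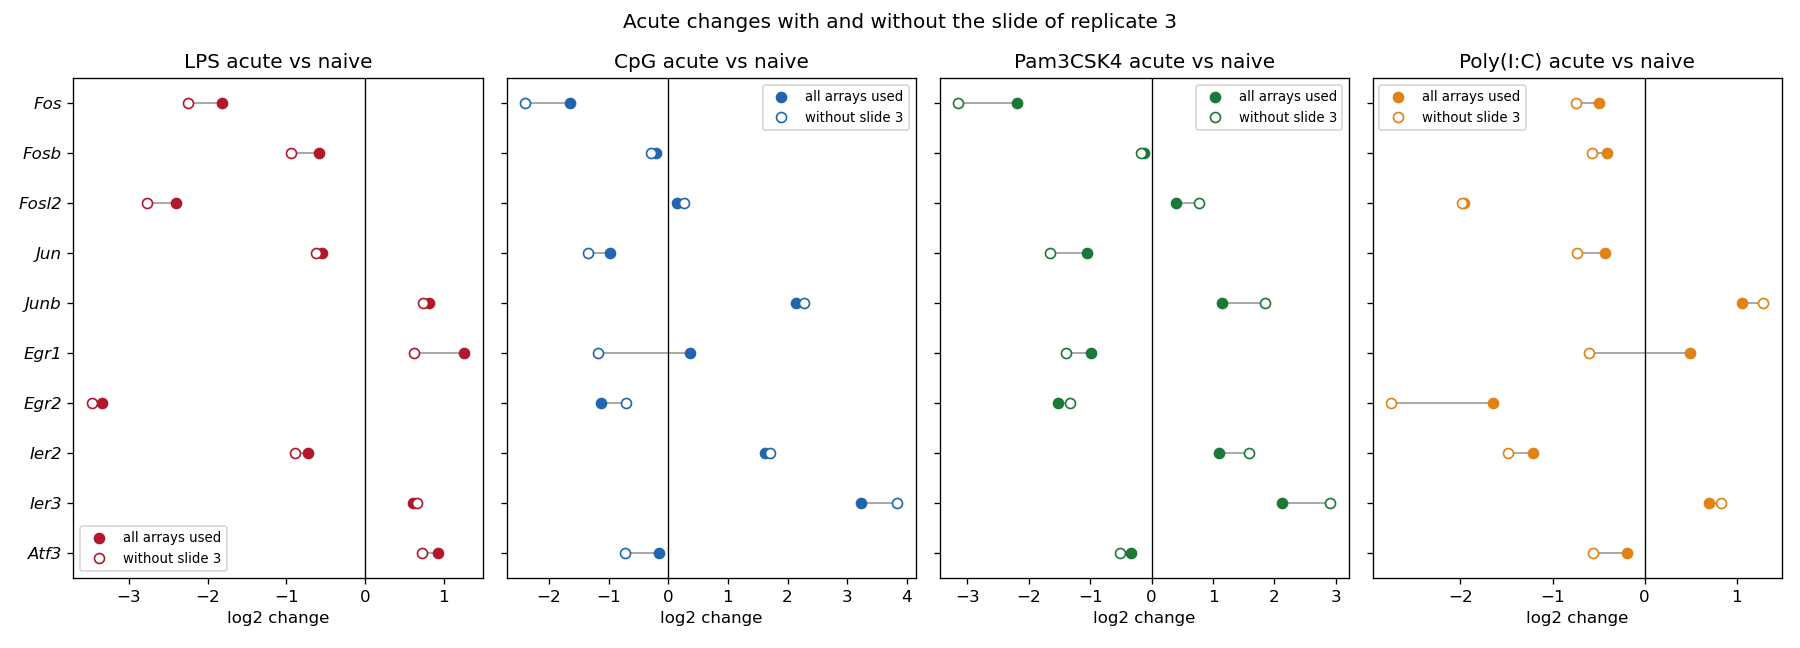
Log2 change from naïve to acute macrophages (x axis) for each of the 10 genes (y axis), in 1 panel per ligand. Filled points use all arrays with deposited values and open points leave out slide 3, which holds no LPS acute array, so in the LPS panel only the naïve group differs. Egr1 crosses 0 with CpG (0.37 to -1.18) and with Poly(I:C) (0.49 to -0.60), and Fos moves furthest from 0 with Pam3CSK4 (-2.19 to -3.15).

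Among the 10 genes, levels over the 25 arrays ran most closely together for Fosl2 and Ier2 (Pearson r = 0.81), Ier2 and Ier3 (r = 0.79) and Ier3 and Junb (r = 0.77), and most oppositely for Jun and Junb (r = -0.77) and for Atf3 and Fosl2 (r = -0.69). These are descriptions over arrays that share groups, slides and normalization. The genes outside the 10 with the most similar levels were Ube2j1 (r = 0.939), Gm10661 (r = 0.912) and Wtap (r = 0.911) for Ier3, Exoc8 (r = 0.927), Lrrc8d (r = 0.918) and Ankrd37 (r = 0.916) for Fosl2, and Rnd1 (r = 0.888) for Junb. For Ier2 they were Errfi1 (r = 0.888), Snx18 (r = 0.886) and Id3 (r = 0.882), for Atf3 Cast (r = 0.899), Ncoa3 (r = 0.883) and Eif4ebp3 (r = 0.88), and for Egr1 Klra9 (r = 0.842), Zfp945 (r = 0.833) and Nr4a2 (r = 0.822), the last an immediate early gene itself. The closest for Egr2 was Incenp (r = 0.843), for Fos Hmga2-ps1 (r = 0.855), for Fosb 2310016C08Rik (r = 0.77) and for Jun Ncoa1 (r = 0.749), apart from an unnamed transcript region at 0.751.

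A list of 21 other AP-1 and bZIP factors, which pair with or resemble the Fos and Jun proteins, gave 5 higher and 4 lower calls with acute LPS (median log2 change 0.25, against -0.01 over all probes tested), 3 and 1 with acute CpG (median 0.28, against -0.07), and 4 and 1 of 20 tested with acute Poly(I:C) (median -0.29, against -0.10). Maff, a small Maf protein without an activation domain, rose with LPS (+5.08, SE 0.26, adjusted p = 0.000324), CpG (+5.08, SE 0.21, adjusted p = 0.000891) and Poly(I:C) (+2.54, SE 0.15, adjusted p = 0.00211). Batf2, a Batf factor, rose with LPS (+4.82, SE 0.21, adjusted p = 0.000226) and Poly(I:C) (+4.21, SE 0.23, adjusted p = 0.00141). Fosl1, the relative of Fosl2 that encodes FRA-1, rose with acute CpG (+2.74, SE 0.36, adjusted p = 0.0192), and was higher in acute CpG than in acute Poly(I:C) (+2.90, SE 0.25, adjusted p = 0.0384). On re-stimulation with LPS it rose against the acute level (+2.53, SE 0.27, adjusted p = 0.00171), as did the stress factor Ddit3 (+2.58, SE 0.23, adjusted p = 0.00106), while Batf2 fell by 3.88 and Mafk by 2.62. In that comparison the list had 5 higher and 6 lower calls (median -0.36, against -0.02). Over all probes tested, 34.2% were called there, and 26.5%, 5.72% and 6.03% with acute LPS, CpG and Poly(I:C).

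Of 23 other immediate early genes, 20 were tested. Over all probes tested, 26.5%, 5.72% and 6.03% were called with acute LPS, CpG and Poly(I:C). With acute LPS 5 rose and 3 fell (median 0.56, against -0.01 over all probes), with acute CpG 4 rose and 0 fell (median 0.48, against -0.07), and with acute Poly(I:C) 2 rose and 0 fell (median 0.09, against -0.10). Gadd45b, a stress-response gene, rose with LPS (+2.98, adjusted p = 0.00174), CpG (+2.99, adjusted p = 0.0138) and with acute Poly(I:C) (+2.03, adjusted p = 0.0382). Csrnp1 rose with LPS (+3.11, adjusted p = 0.000441) and with acute Poly(I:C) (+3.40, adjusted p = 0.0132). Klf10 and the kinase gene Plk3 fell with acute LPS (-3.31 and -1.65) and rose from acute to re-stimulated LPS (+3.63 and +3.24). In the latter comparison 5 genes of the list rose and 6 fell. Gadd45b was among those that fell (-2.15, adjusted p = 0.00537). The list median there was 0.10, against -0.02 over all probes tested, of which 34.2% were called. In re-stimulated Poly(I:C) against naïve cells 6 rose and 0 fell (median 0.48, against -0.04, with 9.03% of all probes called). Among the 6 was the nuclear receptor gene Nr4a2 (+2.77, SE 0.44, adjusted p = 0.0214).

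Of 24 genes in a list of kinases, serum response factors and cofactors, 6 rose and 5 fell with acute LPS (26.5% of all probes called). With acute CpG 2 rose and 2 fell (5.72%), and with acute Poly(I:C) 2 rose and 1 fell (6.03%). The list medians were -0.25, 0.18 and 0.04, against -0.01, -0.07 and -0.1 over all probes tested. Mapkapk2, a kinase downstream of p38, rose with all 3 ligands (+2.17, +2.12 and +1.61). Mkl1, a cofactor of serum response factor, fell with all 3 (-1.32, -1.22 and -1.13). With acute Pam3CSK4 0 of each of these lists passed. Of 7 heat and handling stress genes, 1 rose with acute LPS and 1 with acute CpG, and in both it was the heat shock gene Hspa1a (+2.40 and +4.10). From acute to re-stimulated LPS, the comparison in which Fosl2, Ier2 and Ier3 rose, 4 of the 7 rose and 2 fell. The median of the 7 was 0.87, against -0.02 over all probes tested, of which 34.2% were called. Hspb1 at +3.34 (SE 0.35, adjusted p = 0.00155) and Hspa1a at +1.53 (SE 0.40, adjusted p = 0.0296) were higher. Hspa8 at -0.85 (SE 0.19, adjusted p = 0.0179) and Hspa5 at -0.79 (SE 0.24, adjusted p = 0.0464) were lower. The summed level of the list was 18.01 to 18.13 on the acute LPS arrays and 17.37 and 17.45 on the re-stimulated LPS arrays, which were the highest and the lowest of the 25 arrays. The part of these stress genes in the results was not tested.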

How the data were processed

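Total RNA of 27 macrophage cultures was hybridised to 1-colour (Cy3) arrays. The authors deposited scanner intensities of 62976 spots per array (Feature Extraction 10.7.3.1) and, for 25 arrays, normalized log2 values. Per the methods, these were made with limma by RMA background correction and quantile normalization. The deposited log2 values (0.943 to 18.8) are used here, averaged over repeated spots by the authors. Values rebuilt from the intensities differed from them by a median of 0.0355 and by at most 1.08. The authors left out Pam3CSK4 acute replicate 2 and the LPS re-stimulated array of replicate 3, and 0 columns were unmapped. Intensities carry no read depth, and the number of arrays limits the precision. Replicates are described once as different mice and elsewhere as independent pools.

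Tests used R 4.3.3, limma 3.58.1 and version 1.17.8 of data.table. For each of 14 comparisons limma was fitted to the 2 groups over probes that at least 2 arrays of 1 of them showed well above background, without a replicate block, and p-values were Benjamini-Hochberg adjusted over all probes tested. Scripts were tested on simulated data. Same-numbered arrays share a slide except LPS acute. Over 30811 probes, deviations from group means correlated at 0.08 to 0.60 in 32 same-slide pairs and at 0.01 to 0.10 in 5 pairs not sharing one. Blocked values are given where they change a call.

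Alternatives were the rebuilt values, normexp background (offset 50), median scaling, the 75th percentile of the processed signal, no detection filter, all 27 arrays, 1 fit of all 9 groups with and without slide as a random block, a replicate block, slide 3 left out, and each array left out. The 10 genes and all gene lists were chosen with earlier results of these data known. A gene with several probes was described by the brightest. Beside the 10, the genes named are up to 3 with the most similar levels and, per list, comparison and direction, up to 2 with the largest called change. Tnf was named after its values were seen. A gene that this rule names is not reported here. Probe positions are those of the array files (mm9), and promoters those of RefSeq on GRCm38.p6, with none taken across builds.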

Additional observations from a re-analysis of the deposited data

Results flagged for a closer look

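Some genes responded differently to different ligands under the same contrast. The change of Fosl2 from acute to re-stimulated cells was larger with LPS than with Pam3CSK4 by 2.89 on the log2 scale, and that of Ier2 by 1.70, each by a test of the difference itself in limma (adjusted p = 0.0207 and 0.0322). The LPS acute arrays in both differences lie on slides of their own, so ligand and slide cannot be told apart there. With all 27 arrays, including the 2 that the authors left out, the Ier2 difference was -0.76 (adjusted p = 0.622). Median scaling left neither gene past the threshold (adjusted p = 0.198 and 0.401).

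For Ier2, every acute array lay above the naïve range with CpG and Pam3CSK4 and below it with LPS and Poly(I:C), which sets 4 pairs of ligands in opposite directions. The acute changes differed by 2.35 between CpG and LPS, by 2.83 between CpG and Poly(I:C), by 1.82 between Pam3CSK4 and LPS and by 2.30 between Pam3CSK4 and Poly(I:C). These 4 differences were not tested. They share the naïve arrays, and those with CpG or Poly(I:C) use groups in which the gene had been picked out.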

How the results depend on the processing

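Of 24 tested calls among the 10 genes, 7 were lost under no alternative and with no array left out: Egr2 and Fosl2 in acute LPS against naïve, Fosl2 and Ier3 in re-stimulated against acute LPS, Ier3 and Junb in re-stimulated CpG against naïve, and Ier3 in re-stimulated Poly(I:C) against naïve. Over 140 gene and comparison pairs, the alternatives gave 1400 values, of which 71 gained and 29 lost a call. Of the untested values, 19 moved by over 1 SD. The 1 value counted as reversed was that of Egr1 in acute CpG without slide 3 (-1.18, from 0.37). Another 51 values had the opposite sign to the main fit with no call gained or lost, and were not counted as reversed. Leaving out slide 3 was chosen after seeing the data. Slide, scan day and the number of arrays limit what acute LPS and Pam3CSK4 can show. Median scaling shifted the median of all probes against naïve by 0.11 to 0.78 and turned the split of higher and lower calls in acute CpG from 863 and 735 to 1015 and 85. The causes of the changed counts below were not tested. Counts for re-stimulated against acute CpG and Poly(I:C) are a description only, since those contrasts were used in choosing the genes. Nothing is read from them. In every comparison with a CpG or Poly(I:C) group, Ier2 is counted for description only.

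The number of the 10 genes called was, for acute against naïve, 4 (LPS), 3 (CpG), 0 (Pam3CSK4) and 1 (Poly(I:C)), for re-stimulated against acute 4, 0, 0 and 4, for re-stimulated against naïve 3, 3, 3 and 5, for acute CpG and acute Pam3CSK4 against acute Poly(I:C) 1 and 0, and for the difference between LPS and Pam3CSK4 on re-stimulation 2. In 1 fit of all 9 groups it became 4 and 3 for CpG and Pam3CSK4 against Poly(I:C), 5, 2 and 3 for acute CpG, Pam3CSK4 and Poly(I:C), and 1 for re-stimulated against acute Pam3CSK4. With slide as a random block these were 4 and 4, then 5, 5 and 3, then 1, with 7 and 5 for re-stimulated CpG and Pam3CSK4 against naïve. With all 27 arrays, LPS re-stimulation gave 2 against acute and 1 against naïve, and the difference between ligands 1. With median scaling, acute LPS gave 2, acute Poly(I:C) 0, re-stimulated LPS and Pam3CSK4 against naïve 1 each, re-stimulated against acute Pam3CSK4 1, the direct comparisons of acute ligands 2 and 1, and the difference 0. With no detection filter, acute CpG gave 1, acute Poly(I:C) 0, re-stimulated LPS, Pam3CSK4 and Poly(I:C) against naïve 1, 1 and 3, re-stimulated against acute Poly(I:C) 2, CpG against Poly(I:C) 0 and the difference 1. With normexp, acute Poly(I:C) gave 2, re-stimulated Pam3CSK4 against naïve 5 and the difference 1. The replicate block gave 0 for re-stimulated Pam3CSK4 against naïve and 0 for CpG against Poly(I:C). Without slide 3, acute CpG, Pam3CSK4 and Poly(I:C) gave 6, 5 and 5, re-stimulated CpG 1 against acute and 5 against naïve, the direct comparisons 4 and 1, and the difference 5. The share of all probes called moved with these settings too. For acute LPS it went from 26.5% to 34.2% in the fit of all 9 groups, 34.8% with slide as a random block and 26.4% with all 27 arrays. It was 11.2% with median scaling, 10.1% with no detection filter, 24.3% with normexp, 19.3% with the replicate block and 37.8% without slide 3. For acute CpG it went from 5.72% to 16.4%, 20.9%, 5.6%, 3.94%, 0.74%, 9.29%, 2.1% and 17.7% in the same order. Over the 14 comparisons it ran from 0% to 34.2% in the main fits and 3.35% to 34.2% in the fit of all 9 groups. With slide as a random block it ran from 7.33% to 34.8%, with median scaling 0.488% to 25.9%, and with no detection filter 0% to 13.7%. For the difference between LPS and Pam3CSK4 the share is given for the main fit only (7.2%), so nothing is read from its changed counts. Nor is anything read from another changed count where the share for that comparison and setting is not given here or above.

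With each array left out in turn, the counts for LPS, CpG, Pam3CSK4 and Poly(I:C) ran from 2 to 6, 0 to 4, 0 to 0 and 0 to 3 (acute against naïve), 3 to 4, 0 to 2, 0 to 0 and 0 to 4 (re-stimulated against acute), and 0 to 3, 2 to 5, 0 to 4 and 2 to 5 (re-stimulated against naïve). They ran from 0 to 3 for CpG and 0 to 0 for Pam3CSK4 against Poly(I:C), and from 0 to 3 for the difference. A group left with 1 array was assumed to vary like the other. The share of all probes called in these fits is not given, so nothing is read from these counts. In these fits the 10 genes lost a call 58 times and gained one 12 times. A further 53 values had the opposite sign to the main fit with no call gained or lost.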

Other observations

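The excluded arrays were looked at separately. Pam3CSK4 acute replicate 2 had 22.6% of its spots flagged as non-uniform and 99.93% of probes well above background. LPS re-stimulated replicate 3 had 0.156% and 92.32%. On the arrays used, at most 0.357% of spots were flagged and at most 74.61% of probes were well above background. On values rebuilt from the scanner intensities of all 27 arrays, the one of Pam3CSK4 acute (replicate 2) gave Fos at 3.42, where the other arrays of its group were at 8.76 and 9.76, Jun at 9.68 (12.45 and 13.48) and Fosb at 10.11 (7.08 and 7.67). The one of LPS re-stimulated (replicate 3) gave Ier2 at 5.19 (7.95 and 8.04), Egr2 at 5.21 (9.07 and 9.56) and Egr1 at 5.04 (7.77 and 8.59), but Ier3 at 11.57 (12.06 and 12.25) and Fosl2 at 11.00 (11.31 and 11.51).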
